A study of Mus musculus with 2 samples.

Results

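The regions described here are distal sites of open chromatin that were listed as peaks in Uhrf1 knockout (KO) mouse embryonic stem cells (ESCs) and had no peak nearby in wild-type (WT) ESCs. There were 2104 such regions among the 61640 peaks of the Uhrf1 KO list, of which 59084 lay on autosomes outside assembly gaps. They were selected on the peak lists themselves. A member was an autosomal Uhrf1 KO peak with its centre more than 2 kb from every annotated transcription start site (TSS), with no WT peak within 100 bp, and with a name number in the lower 50% of its chromosome. The name number is the running number that ends each peak's name, and what it ranks is not given in the sources used here, so "low number" is used below only as a label.

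The series was an assay for transposase-accessible chromatin with sequencing (ATAC-seq), in which a transposase inserts adapters where DNA is accessible. The 2 groups were undifferentiated E14 mESC of WT genotype and undifferentiated Uhrf1 KO E14 mESC, both kept in medium with serum and leukemia inhibitory factor on gelatin or feeder-coated plates. Each genotype had 1 library, and the KO was an established line that came with its E14 control from another laboratory, so the genotype, the line and the library cannot be told apart. Without replicates there is no test of the difference between genotypes, no p-value is given, and the 95% exact binomial intervals below cover counting error over regions only. Regions are not replicates of a genotype. The deposited lists hold positions and a score of 1 for every peak, so the height of a peak and the sequencing depth are unknown.

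Uhrf1 binds hemimethylated DNA after replication and brings in Dnmt1, the enzyme that copies CpG methylation to the new strand. It also reads histone H3 methylated at lysine 9. Much of the methylated DNA of a mouse cell lies in interspersed repeats, which include L1 elements and long terminal repeat retrotransposons, and DNA methylation and H3K9 methylation are known to keep such elements silent. Distal open sites are, in general, where enhancers, insulators and transcribed repeats are found.

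Sequences are shown first, from the NCBIM37 (mm9) genome, on the forward strand and 5′ to 3′. The 3 members with the lowest numbers relative to their chromosome are shown whole, because they are the top of the list, with each CpG in capitals.
Lowest-number member near Gm10159, chr7:95761354-95761454: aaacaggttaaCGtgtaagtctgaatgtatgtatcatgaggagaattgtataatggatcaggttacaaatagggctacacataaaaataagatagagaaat
Lowest-number member near Cdh9, chr15:15385306-15385406: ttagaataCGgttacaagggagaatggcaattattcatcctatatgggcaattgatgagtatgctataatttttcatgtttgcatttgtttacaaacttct
Lowest-number member near Pxmp3, chr3:6049406-6049506: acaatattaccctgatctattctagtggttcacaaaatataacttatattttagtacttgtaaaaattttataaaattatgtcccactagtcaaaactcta
These 3 sequences were AT-rich, with GC contents of 32.5%, 33.5% and 28% over the central 200 bp, and held at most 1 CpG. All were intergenic, and the central 31 bp of each was found once in the genome. The first lay 81969 bp upstream of Gm10159 with its nearest WT peak 106528 bp away. The second lay 1322500 bp upstream of Cdh9, a cadherin gene, with its nearest WT peak at 185908 bp. The third lay 473217 bp upstream of Pxmp3, a peroxisome biogenesis gene, and its nearest WT peak was only 106 bp away, just beyond the 100 bp of the rule.

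Among the 20 members with the lowest numbers, 17 were intergenic and 3 intronic, 14 had a single-copy centre and none had a centre found over 10 times. Their median GC content was 39.25%, and 10 had no WT peak within 10000 bp. Of these 20, 5 lay in the first part of chromosome 1, described below, near Npbwr1, Xkr4 and Sox17. The others included a site 580045 bp from the start of Plod2, a collagen-modifying enzyme, with a WT peak 367 bp away, and an intronic site 223762 bp upstream of Mrpl3, a mitochondrial ribosomal protein, with none within 254712 bp. Further sites lay 462434 bp upstream of Lphn3, an adhesion receptor, 268864 bp upstream of Abra, an actin-binding regulator of muscle, and in an intron 2958 bp downstream of the start of Api5, an apoptosis inhibitor. The remaining 7 lay nearest to Gm6455, 4930467E23Rik, 4930555F03Rik, 2900060B14Rik, Prpmp5, Olfr251 and C1galt1, at 8474 bp (Olfr251) to 104554 bp (4930555F03Rik).

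Many other members resembled each other. The next sequences come from the 5 largest groups of members linked by alike sequence, and each is the member with most matches in its group among those that could be shown. Capitals mark CpGs in groups 1, 2, 3 and 5. In group 4 they mark the letters AAGATGGC, the core of the YY1 motif, or TGACGTCA, the cAMP response element (CRE), on either strand.
Group 1, chr5:86990056-86990255: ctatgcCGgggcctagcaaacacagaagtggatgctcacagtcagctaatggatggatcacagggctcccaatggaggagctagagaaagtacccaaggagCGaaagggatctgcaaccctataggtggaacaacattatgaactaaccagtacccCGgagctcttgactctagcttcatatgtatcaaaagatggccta
Group 2, chr1:168483446-168483645: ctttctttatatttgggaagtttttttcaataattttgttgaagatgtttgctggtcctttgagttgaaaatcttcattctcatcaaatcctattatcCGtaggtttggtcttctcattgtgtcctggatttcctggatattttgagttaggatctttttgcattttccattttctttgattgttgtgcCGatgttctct
Group 3, chr11:16508012-16508211: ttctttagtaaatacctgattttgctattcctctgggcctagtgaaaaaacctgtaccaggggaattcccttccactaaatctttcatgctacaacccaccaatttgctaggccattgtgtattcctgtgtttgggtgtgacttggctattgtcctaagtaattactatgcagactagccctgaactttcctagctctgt
Group 4, chr9:69704979-69705178: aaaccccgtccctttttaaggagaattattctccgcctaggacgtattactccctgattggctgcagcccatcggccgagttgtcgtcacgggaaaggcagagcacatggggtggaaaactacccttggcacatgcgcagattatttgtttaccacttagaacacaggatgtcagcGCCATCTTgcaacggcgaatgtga
Group 5, chr15:24966535-24966734: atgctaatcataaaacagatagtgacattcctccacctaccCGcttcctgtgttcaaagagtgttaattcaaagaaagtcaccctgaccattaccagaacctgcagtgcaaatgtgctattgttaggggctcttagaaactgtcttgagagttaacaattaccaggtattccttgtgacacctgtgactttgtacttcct
Group 1 is shown by a site 42531 bp upstream of Tmprss11g, in an intron of an annotated gene, and group 2 by an intergenic site 55827 bp upstream of Gm4846. Group 3 is shown by a site 99625 bp upstream of Sec61g and group 4 by a site 96332 bp upstream of Foxb1. For group 5 it is a site 112279 bp downstream of the start of 9230109A22Rik. Groups 1, 2 and 3 were poor in CpG, each with a median of 1. Group 4 was rich, with 11 CpGs in the 200 bp printed. Of the group 4 and group 5 members that held a CRE or the octamer ATGCAAAT, which POU factors such as Oct4 bind, those with the lowest numbers are added, with the match in capitals, 83483 bp upstream of Rpl13a-ps1 and 7383 bp upstream of Atp6v1e2.
Group 4 with a CRE, chr19:50188608-50188807: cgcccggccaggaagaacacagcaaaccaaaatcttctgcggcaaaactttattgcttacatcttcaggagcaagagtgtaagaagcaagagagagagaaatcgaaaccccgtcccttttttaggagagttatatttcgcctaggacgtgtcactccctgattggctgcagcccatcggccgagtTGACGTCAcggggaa
Group 5 with an octamer, chr17:87354510-87354709: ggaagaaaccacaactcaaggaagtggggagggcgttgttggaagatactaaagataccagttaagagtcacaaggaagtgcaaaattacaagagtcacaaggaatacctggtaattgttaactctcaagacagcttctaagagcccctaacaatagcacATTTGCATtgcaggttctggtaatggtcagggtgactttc
Among members not called repeat-like, as defined below, the lowest-number member with a match to the motif of CTCF, the insulator protein, follows. Its match is in capitals.
Member with a CTCF match, chr11:72384181-72384380: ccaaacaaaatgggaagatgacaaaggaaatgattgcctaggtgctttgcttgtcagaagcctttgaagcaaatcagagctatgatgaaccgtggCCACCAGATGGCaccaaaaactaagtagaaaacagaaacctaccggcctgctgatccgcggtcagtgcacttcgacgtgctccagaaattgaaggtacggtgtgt
It was intergenic, 20273 bp upstream of Spns3, and its nearest WT peak lay 1402 bp away. A second member overlapped it, at chr11:72384176-72384276, so the 2 share this match.

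Distal Uhrf1 KO peaks with numbers in the lower 50% numbered 12494, and the 2104 members made up 16.8% of them. The background over all autosomal Uhrf1 KO peaks outside gaps was 24.4% without a WT peak within 100 bp. It was 52.7% among distal peaks in the upper 50% of name numbers and 2.38% among peaks within 2 kb of a TSS in the lower 50%. In the WT list, 14% of the low-number distal peaks had no Uhrf1 KO peak within 100 bp. These shares describe how the members were chosen and are not a result about them.

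Members became more frequent as the number rose. They were 23 of the 2054 distal KO peaks in the lowest 10% of ranks (1.12%), and 157, 345 and 620 in the next 3 steps of 10%. In the step from 40 to 50% they were 959 of 3135 (30.6%). The limits of the rule cut through continuous values. There were 101 distal KO-only peaks ranked from 49 to 50% and 102 from 50 to 51%. There were 41 lower-ranked distal KO peaks with a WT peak at over 100 and up to 150 bp, inside the rule, and 56 with it at 51 to 100 bp, outside. There were 43 lower-ranked KO-only peaks at 2000 to 2500 bp from a TSS and 45 at 1500 to 2000 bp. The gap to the nearest WT peak is a value the rule used. It was not summarised for the other sets, so it is not given as a trait of the members. The gap had a median of 18149 bp and a range of 102 to 338087 bp, and 1578 members had no WT peak within 5000 bp. Another Uhrf1 KO peak lay within 1000 bp of 375 members, and 1167 had none within 10000 bp.

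The start of chromosome 1 stood apart in both lists. The first 3 Mb of this chromosome are unsequenced in the assembly, yet 130 Uhrf1 KO and 145 WT peaks were listed there, and those were left out. From 3 to 5.9 Mb the Uhrf1 KO list held 276 peaks (95.2 per Mb) and the WT list 250 (86.2 per Mb), against 21.8 and 25.6 per Mb over the rest of the chromosome. In the Uhrf1 KO list 11.2% of these peaks were within 2 kb of a TSS, against 41.4% beyond 5.9 Mb. After the last of them came 86831 bp without a KO peak. The stretch held 39 of the 2104 members, among them all 14 nearest to Xkr4, the 7 nearest to Oprk1, and those near Npbwr1 and Sox17. The cause was not tested and positions there are uncertain. Without the stretch 2065 members remained, and the main shares differed little, as the repeat-like share of 57.4% without it and 57.0% with it shows.

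**Figure D1:**
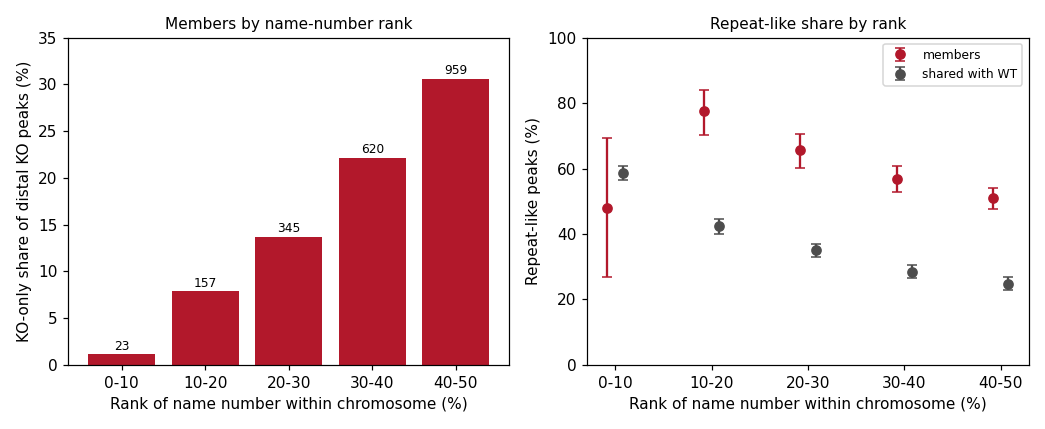
Left, the share of distal Uhrf1 KO peaks without a WT peak within 100 bp (y axis, %) by rank of the name number within its chromosome (x axis, steps of 10%), with the number of members above each bar. Right, the share of repeat-like peaks among members and among KO peaks shared with WT in the same steps, with 95% exact intervals; from rank 10% on, members lie above shared peaks at every step.

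Members were compared with 3 other sets of distal peaks. "Shared" peaks are the 10390 low-number distal Uhrf1 KO peaks that had a WT peak within 100 bp. "WT-only" peaks are the 1660 WT peaks chosen by the same rule with the lists exchanged. "Upper KO-only" peaks are the 9526 KO-only peaks of the upper 50% of numbers. Members were intergenic in 1431 cases (68.0%, interval 66.0 to 70%), intronic in 635 (30.2%, 28.2 to 32.2%) and exonic in 38 (1.81%, 1.28 to 2.47%). The intergenic share was 66.2% in shared peaks, 62.5% in upper KO-only peaks and 59.6% in WT-only peaks. Exons held 9.46% of WT-only peaks (8.09 to 11%), well above the members. The nearest TSS of a member lay at a median of 28796 bp (26196 to 31333 bp), against 23042 bp for shared, 24461 bp for upper KO-only and 18849 bp for WT-only peaks. It was over 200000 bp away for 233 members (11.1%, 9.76 to 12.5%) and for 8.35% of shared peaks (7.83 to 8.90%). Members lay upstream of the nearest protein-coding TSS in 51% of cases (48.8 to 53.2%), an interval that includes 50%.

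Members were poorer than shared and WT-only peaks in GC and in CpG, the dinucleotide that carries methylation. Their median GC content over the central 200 bp was 47% (46.5 to 47.5%), against 52% for shared, 49% for upper KO-only and 56.5% for WT-only peaks. Sequences of the same length 1 kb to the left and right of the members had medians of 42% and 41.5%, so members were still richer in GC than their flanks. No CpG was found in 369 members (17.5%, 15.9 to 19.2%). In their left and right flanks the share was 26.1% and 27.7%, so members were also richer in CpG than their flanks. In shared peaks the share was 11% (10.4 to 11.6%) and in WT-only peaks 5.66% (4.60 to 6.89%). At the other end, 57 members had 10 or more CpGs (2.71%, 2.06 to 3.5%), compared with 16.2% of shared and 26.9% of WT-only peaks. Upper KO-only peaks were close to the members here, with 17% lacking a CpG and 2.77% holding 10 or more.

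Repeated sequence was frequent in the members. A peak was called repeat-like when its central 200 bp matched at least 10 stretches of chromosome 19 over 80 bp or more, and peaks on chromosome 19 itself were not scored. By this measure 1169 of 2050 members were repeat-like (57.0%, 54.8 to 59.2%). The share was 37.4% in shared peaks (36.5 to 38.4%), 40.0% in upper KO-only peaks (39.0 to 41.0%) and 18.4% in WT-only peaks (16.6 to 20.4%). The flanks of the members were also repeat-like more often (42.4%, 40.8 to 43.9%) than those of shared peaks (28.5%), upper KO-only peaks (29.1%) and WT-only peaks (20.7%). A repeat-like peak could still have a centre found once in the genome, as 664 of the 1169 did. In turn, a member not called repeat-like could have a repeated centre. The member at chr5:118778636-118778736 had 0 alike stretches on chromosome 19 and a centre found 2831 times. The central 31 bp occurred once in the genome in 1483 members (70.5%, 68.5 to 72.4%), 2 to 10 times in 402 and over 10 times in 219 (10.4%, 9.14 to 11.8%). The single-copy share was 79.9% for shared, 81.7% for upper KO-only and 89.0% for WT-only peaks. Among peaks with a single-copy centre, 46.1% of members were repeat-like (43.5 to 48.8%), as were 27.3% of the shared set (26.3 to 28.3%), 31.6% of the upper KO-only set (30.5 to 32.6%) and 12.8% of the WT-only set (11.1 to 14.6%). Reads were placed with a setting that keeps 1 alignment for each read, so the position of a member without a single-copy centre is less certain. No 31 bp of the listed peak was found once in 127 members.

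**Figure D2:**
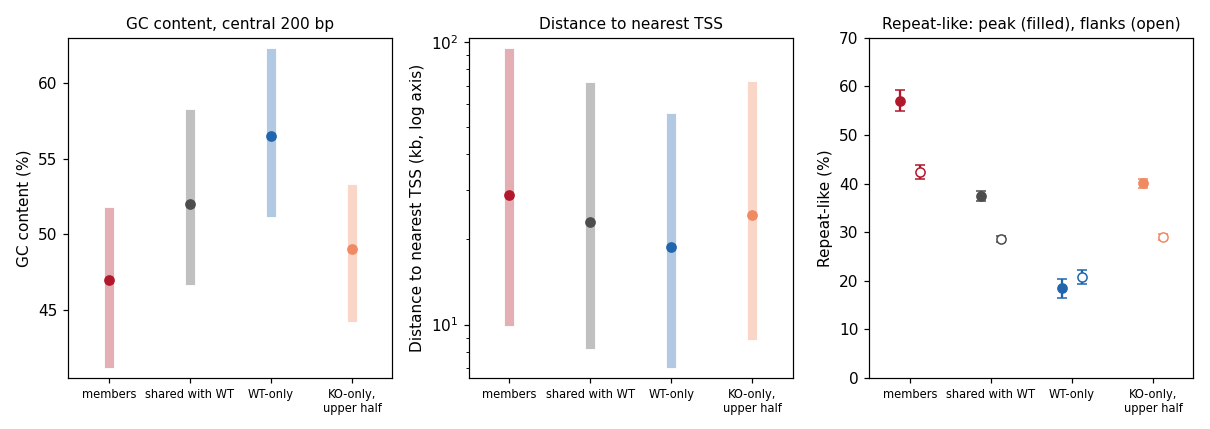
GC content of the central 200 bp (left, %) and distance to the nearest TSS (middle, kb, log axis) as medians (points) with the range from the first to the last quartile (bars), and the repeat-like share of peaks and their flanks (right, %, with 95% exact intervals), for members, shared, WT-only and upper KO-only peaks. Members have the lowest median GC (47%), the longest median distance and the highest repeat-like share (57.0%) of the 4 sets.

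Within the members, the repeat-like share fell along the numbers, from 77.6% (70.2 to 84%) at ranks of 10 to 20% to 65.6%, 56.9% and 50.9% (47.7 to 54.2%) in the next steps. In shared peaks it went from 42.4% to 24.9% over the same steps. In the lowest 10% of ranks it was 47.8% for the members, with an interval of 26.8 to 69.4% from 23 regions, and 58.7% for shared peaks, so no difference was detectable there. Median GC content of the members rose from 43% at ranks of 10 to 20% to 48% at 40 to 50%. Intergenic members were repeat-like in 65.5% of cases (63.0 to 68.0%) and intronic members in 40.1% (36.2 to 44.1%). Repeat-like members lay farther from genes, with a median of 43259 bp to the nearest TSS, against 16136 bp for members that were not repeat-like. By chromosome, the repeat-like share ranged from 31.5% on chromosome 11 to 70.6% on chromosome 3.

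Over 50% of the members matched another member. Linked by matches of at least 100 bp and 80% identity, 1139 members (54.1%) fell into 95 groups, 19 of which had 10 members or more. Of the 95 groups, 47 were pairs. Members that overlap on the genome were not merged first, so some matches can be of 1 site with itself. How many groups this concerns was not counted. Merging members within 100 bp of each other left 2070 of the 2104. The 5 largest held 695 members. A group joins members through chains of matches, so 2 of its members need not match each other. The sequence shown above for group 1 matched 67 other members, that for group 2 matched 17 and that for group 3 matched 19. For groups 4 and 5 these numbers were 28 and 21. Group 1 had 374 members, on all 19 autosomes, of which 300 were intergenic, and the median centre was found 2 times in the genome. Group 2 had 169 members, 4 of them in the first part of chromosome 1, and was the poorest in GC with a median of 38%. Group 3 had 72 members with a median GC content of 41% and 34 members without a CpG. These groups come from sequence alone. No repeat annotation was used here, so they are not named as repeat families.

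Motif contents differed between the groups. Group 1, the largest, held 36 of the 77 members with AAGATGGC (9.63% of the group) and 17 of the 74 with the POU octamer (4.55%). Group 4 had 49 members with a median of 7 CpGs and none without a CpG. AAGATGGC was found in 19 of these (38.8%), and 7 of the 49 held a CRE, out of 14 members with a CRE in all. TGCCGC, the core that ZFP57 binds at methylated imprinted regions, was found in 12. Group 5 had 31 members, and 16 of them (51.6%) held the POU octamer. In the same group GGAATG, the TEAD motif, was found in 17 and ACAAAGG, a SOX motif, in 9. Group 10, with 17 members, held TGACTCA, the AP-1 motif, in 6 and CCGGAAG, the ETS motif, in 6. Members of a group are linked by alike sequence, so their motif matches are not independent of each other.

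Peaks alike the group representatives were also found outside the members. For group 1 the other members were at 3.19% (2.48 to 4.03%), close to shared peaks at 2.79% (2.48 to 3.13%), with upper KO-only peaks at 2.27% (1.98 to 2.59%) and WT-only peaks at 0.181%. Sequences alike the representative of group 5 made up 21 of the other members (1.00%, 0.619 to 1.52%), 0.231% of shared peaks (0.148 to 0.343%), 0.241% of upper KO-only peaks and none of the 1660 WT-only peaks (up to 0.222%). For group 2 the shares were 0.808% of members (0.472 to 1.29%), 0.0674% of the shared set (0.0271 to 0.139%), 0.147% of the upper KO-only set and none in the WT-only set. For group 3 they were 0.903% (0.545 to 1.41%), 0.549% (0.416 to 0.710%) and 0.231% (0.145 to 0.349%), again with none in the WT-only set. For group 4 they were 1.33% (0.887 to 1.92%), 0.847% (0.680 to 1.04%), 0.535% (0.399 to 0.703%) and 0.120% (0.0146 to 0.435%). For groups 6 and 7, with 29 members each, members were at 1.24% in both, shared peaks at 1.71% and 1.70% and upper KO-only peaks at 1.71% and 1.54%. The representatives were taken from the members, which by itself favours matches among members, and no test was made.

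**Figure D3:**
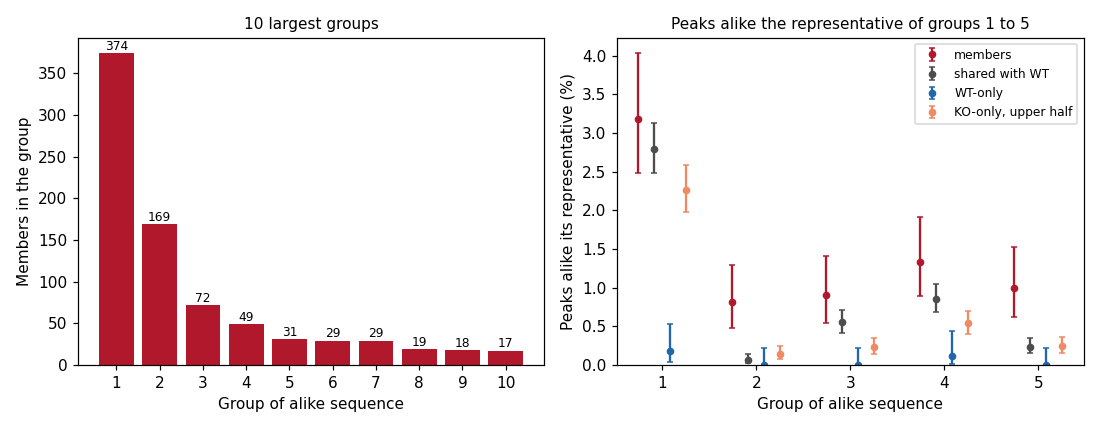
Left, the number of members in each of the 10 largest groups of alike sequence, from 374 to 17. Right, the share (%) of members, shared, WT-only and upper KO-only peaks alike the representative of groups 1 to 5, with 95% exact intervals; WT-only peaks lie lowest in every group.

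Motifs were counted on both strands of the central 200 bp and of the 2 flanks, and a match describes letters, not binding. Of 18 motifs searched, at least 1 was found in 829 members (39.4%). CTCF matches were found in 41 members (1.95%, 1.40 to 2.63%) and in 0.143% of flanks. CTCF matches were less frequent in members than in the shared set (3.02%, 2.70 to 3.37%) or the WT-only set (8.80%, 7.48 to 10.3%), and the interval of the members overlapped that of upper KO-only peaks (2.83%, 2.51 to 3.19%). The KLF motif CCACACCC was found in 3.33% of members, 1.19% of flanks, 3.88% of shared and 3.65% of upper KO-only peaks. TGACTCA of AP-1, the Fos and Jun dimer, was found in 120 members (5.70%, 4.75 to 6.78%), in 2.66% of flanks and in 4.22% of shared peaks (3.84 to 4.62%). Upper KO-only peaks held it as often as the members, at 6.05% (5.58 to 6.54%). The octamer was found in 3.52% of members (2.77 to 4.4%) and 2.09% of flanks, in 3.27% of shared peaks and in 2.51% of upper KO-only peaks (2.20 to 2.84%). AGATAAG, the GATA motif, was found in 83 members (3.94%, 3.15 to 4.87%), close to the 3.16% of their flanks, while in shared peaks it was at 1.90% (1.64 to 2.18%), under the 2.81% of their flanks. In upper KO-only peaks GATA was at 3.89% (3.52 to 4.30%), so neither AP-1 nor GATA set the members apart from the other KO-only peaks. The SOX motif ACAAAGG was at 6.75% of members and 4.78% of flanks, GGAATG of TEAD at 13.7% and 11.6%, and AAGATGGC of YY1 at 3.66% and 2.14%. TCAAGGTCA of ESRRB, a nuclear receptor of the pluripotency network, was at 0.475% and 0.428%. Shared and upper KO-only peaks were at 7.07% and 7.14% for SOX, 13.1% and 14.7% for TEAD, 4.64% and 3.09% for YY1 and 0.423% and 0.441% for ESRRB. None of these 4 motifs set the members apart from both sets. The X-box of RFX factors was in 3 members (0.143%, 0.0294 to 0.416%). Shared peaks at 0.308% and upper KO-only peaks at 0.231% lay within that interval.

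The ETS, ZFP57 and E-box motifs, which contain a CpG, were less frequent in members, which held fewer CpGs, than in shared peaks. Within classes of CpG number (0 to 1, 2 to 4, 5 or more) the intervals of members and shared peaks overlapped for each of these 3 motifs. ETS at 2 to 4 CpGs was in 2.15% of members and 1.94% of shared peaks. Without regard to class, of these 3 only the E-box was also below upper KO-only peaks beyond the intervals. The motif of NRF1, a factor whose binding is blocked by methylation, was found in 0 of 2104 members, which allows up to 0.175%. It was in 24 shared peaks (0.231%, 0.15 to 0.34%) and in 5 upper KO-only peaks (0.0525%), with intervals that overlap that of the members. All 24 of the shared peaks held 5 or more CpGs. In that class 0 of 339 members had a match, which allows up to 1.08%, so no difference was detectable. The BANP motif CTCGCGAG was in 1 member (0.0475%, up to 0.265%), 8186 bp upstream of Gm15831. It was in 0.106% of shared peaks and in none of the upper KO-only peaks. The CRE was in 14 members (0.665%, 0.364 to 1.11%), 0.214% of their flanks, 0.645% of shared peaks and 0.336% of upper KO-only peaks (0.230 to 0.474%). Besides the group 4 site on chromosome 19 shown above, members with a CRE and low numbers lay near Poteg, Mef2c, Haao and Rbm11. CCGGAAG was found in 1.52% of members (1.04 to 2.14%), above the 0.570% of their flanks, in 3.29% of shared peaks (2.96 to 3.65%) and in 1.59% of upper KO-only peaks (1.34 to 1.86%). TGCCGC was in 2.90% of members (2.22 to 3.71%), 1.33% of their flanks, 6.02% of shared peaks and 3.14% of upper KO-only peaks (2.80 to 3.51%). The E-box CACGTG was in 2.04% of members (1.48 to 2.74%) and 2.09% of their flanks, and was more frequent both in shared peaks (3.96%, 3.59 to 4.35%) and in upper KO-only peaks (3.53%, 3.17 to 3.92%). The REST motif and the composite Oct4-Sox2 motif had no match in any member, which again allows up to 0.175%. Both were rare elsewhere too. The composite was in 0.0866% of shared and 0.0315% of upper KO-only peaks, and REST in 0.0192% and 0.0525%, so no difference was detectable.

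Repeat-like members and the others differed in motif content. AP-1 was found in 82 of the 881 members that were not repeat-like (9.31%, 7.47 to 11.4%) and in 2.48% of the repeat-like members (1.67 to 3.54%). CTCF was at 4.20% (2.97 to 5.74%) and 0.342% (0.0933 to 0.874%), KLF at 5.68% and 1.45%, and GATA at 5.9% and 2.65%. YY1 was the other way round, at 0.341% (0.0703 to 0.992%) and 6.24% (4.93 to 7.79%). The octamer was at 2.61% (1.66 to 3.89%) and 4.36% (3.27 to 5.70%), with overlapping intervals.

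**Figure D4:**
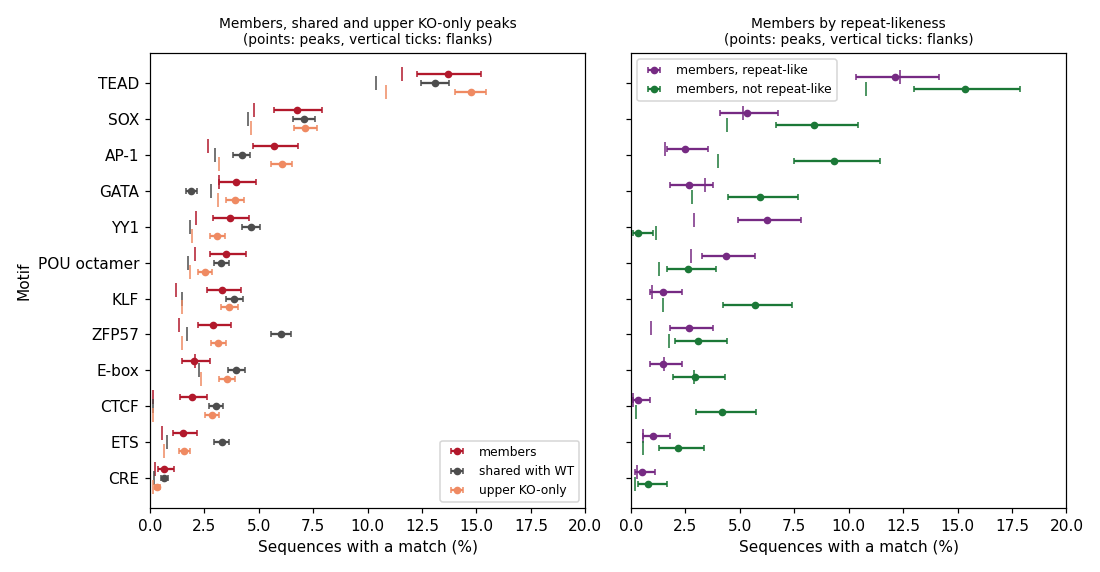
Share of sequences with a motif match (x axis, %) for 12 motifs, as points with 95% exact intervals for peaks and vertical ticks for their flanks. Left, members, shared and upper KO-only peaks, where members and upper KO-only peaks lie close for AP-1 (5.70% and 6.05%) and GATA (3.94% and 3.89%); right, repeat-like members and other members, where AP-1 (9.31% against 2.48%) and YY1 (0.341% against 6.24%) differ in opposite directions.

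The nearest protein-coding genes were spread widely. The members were nearest to 1608 genes of the 21418 annotated on autosomes, and 1287 of these had 1 member, 231 had 2 and 90 had 3 or more. Distance alone links a peak to a gene here, and expression was not used. Outside the first part of chromosome 1, the gene with most members was Lrrc4c, a synaptic adhesion gene, with 8 at 98364 to 478637 bp. It was followed by Cdh18, a cadherin gene, and Gm1818 with 7 each. Grik2, a glutamate receptor subunit, Cdh2, the N-cadherin gene, Gbe1, a glycogen branching enzyme, and Epha7, an ephrin receptor, had 6 each. Nrp2, a semaphorin receptor, had 5. Most of these genes are nearest to long stretches of sequence, 2.69 Mb for Lrrc4c, 2.33 Mb for Cdh18, 2.80 Mb for Grik2 and 2.91 Mb for Epha7. The stretches were shorter for Cdh2 (1.93 Mb), Gbe1 (1.40 Mb), Gm1818 (1.28 Mb) and above all Nrp2 (0.727 Mb). The members near Cdh18 were all repeat-like, 7 of 7, whereas of those near Nrp2 1 of 5 was. The 305 genes nearest to over 1 Mb of sequence took 20.5% of the autosomal sequence, 20.6% of the members and 14.9% of shared peaks.

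Few members lay nearest to genes of the lists examined. Pluripotency genes had 8 members among 27 genes found (0.380%, 0.164 to 0.748%), against 0.577% of shared peaks (0.441 to 0.743%). They lay nearest to Sox2, Myc, Gdf3, Dppa3, Dppa5a, Mycn, Prdm14 and L1td1. The member near Gdf3, a TGF-beta family ligand, was intronic at 2147 bp from the start, with a WT peak 530 bp away. Those near Dppa3, which protects methylation in the zygote, and Dppa5a lay at 4893 and 3938 bp. Endoderm genes had 8 members (0.380%, against 0.269% of shared peaks), of which 4 were at Sox17 in the uncertain first part of chromosome 1. Others lay near Dab2, Pdgfra and Gata6. Mesoderm, heart and muscle genes had 9 members (0.428%, against 0.298%), 3 of them near Mef2c, a myocyte factor, and 1 each near Pdgfra, Gata6, Foxc1, Bmp2, Eomes and Myod1. The Myod1 member was 8753 bp downstream of the start and the Eomes member 9577 bp. Neuroectoderm genes had 7 members (0.333%, against 0.337%), 6 near Cdh2 and 1 in an intron near Otx1. Imprinted genes had 6 members, 3 near Dlk1 and 1 each near Ube3a, Zdbf2 and Grb10, which came to 0.285% against 0.366%. For each of these lists the interval of the members included the share of the shared peaks.

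The genes for DNA and H3K9 methylation had 3 members (0.143%, 0.0294 to 0.416%), against 0.0866% of shared and 0.115% of upper KO-only peaks. The interval of the members includes both shares. Of the 3, 1 was nearest to Dnmt1, the partner of Uhrf1. It lay in an intron 8835 bp downstream of a Dnmt1 start, at chr9:20748432-20748532, with no CpG in its central 200 bp and a WT peak 8793 bp away. Mbd2, a reader of methylated CpG, had 2 members, at 465577 and 549473 bp. The germ-line list had 2 members, both near Rpl10l, trophoblast genes had 2, near Gcm1 and Eomes, and the 2-cell list had 1, near Tdpoz1. These were 0.0951%, 0.0951% and 0.0475% of members, against 0.0770%, 0.106% and 0.0385% of shared peaks. By family, olfactory receptor genes were nearest to 40 members (1.90%, 1.36 to 2.58%) and vomeronasal receptor genes to 30 (1.43%, 0.964 to 2.03%). Shared peaks were at 1.52% (1.29 to 1.77%) and 1.12% (0.923 to 1.34%), with intervals that overlap those of the members. Zfp genes were nearest to 28 members (1.33%, 0.886 to 1.92%) and 2.20% of shared peaks (1.93 to 2.50%). Upper KO-only peaks were at 1.60% (1.35 to 1.87%), an interval that overlaps that of the members. Cadherin genes had 23 members (1.09%, 0.694 to 1.64%), against 0.703% of shared (0.551 to 0.883%) and 0.798% of upper KO-only peaks (0.629 to 0.998%), with overlapping intervals. Protocadherins had 13 (0.618%, against 0.626% of shared peaks) and defensins 2 (0.0951%, against 0.0770%). Hox genes had 1 (0.0475%), against none of the shared peaks and 0.0210% of upper KO-only peaks.

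Members were thinly spread along the chromosomes. They ranged from 54 on chromosome 19 to 179 on chromosome 1, of which 140 lay beyond 5.9 Mb. As a share of distal lower-ranked KO peaks they ran from 12.9% on chromosome 8 (10.4 to 15.9%) to 22.2% on chromosome 19 (17.2 to 28.0%). Of 1279 windows of 1 Mb with a member, 760 had 1 and 16 had 5 or more. The 3 fullest windows, with 14, 14 and 12 members, were those of chromosome 1 from 3 to 6 Mb. The next, with 8, was chr8:19000001-20000000, which holds defensin genes, and it had 58 Uhrf1 KO and 66 WT peaks in all. Windows with 7 were chr12:49000001-50000000, with Gm1818 alone, and chr14:4000001-5000000, with many predicted genes.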

How the data were processed

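ATAC-seq was done on 1 WT and 1 Uhrf1 KO library of E14 mESC. Per the labels, the authors mapped reads to mm9 with Bowtie2 2.1.0 and used HOMER 4.9.1; the methods add that 1 alignment was kept per read. The peak caller's command, threshold and any shift for the transposase are not given in the sources used here. The deposited lists hold peak positions (other values) and a score, which is 1 in every row, so depth is unknown. All members were 101 bp wide.

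Members and gene and motif lists were chosen with earlier results of these data known. Distances were taken to the TSSs of GENCODE vM1. GC, CpG and 18 motifs were read from the central 200 bp and from flanks centred 1000 bp away. Copies of 31 bp were counted over the genome on both strands. Matches were found with blastn 2.17.0, against chromosome 19 in tiles (word 14, e-value 1e-5, at least 80 bp) and among members (at least 100 bp, 80% identity). Intervals are exact (Clopper-Pearson) at 95%; no test was made. Named are the 20 members with the lowest numbers (3 are shown), the 10 genes with most members, the fullest windows, members nearest to listed genes, the 5 largest groups (groups 6, 7 and 10 were added after their values were seen) and the lowest-number members with NRF1, CRE, BANP or CTCF matches. Scripts were tested on simulated data. Python 3.11.15 was used.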

Additional observations from a re-analysis of the deposited data

How the results depend on the processing

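With 1 library per genotype, neither library error nor depth could be assessed. No paired analysis was possible because the WT and Uhrf1 KO groups held 1 library apiece and nothing was tested. Of 268 values recomputed under 11 alternatives, 210 stayed within the interval of the reported value (or within 1.5 times a count) and 58 did not, and no test was attached to any. Among the 210, the repeat-like share at more than 1 kb from a TSS could not change. It rested on the same 2050 peaks, because the added peaks were not scored. In the lowest 25% of numbers there were 334 members near 292 genes, with 74.55% intergenic, a median GC of 44%, 61.1% with a single-copy centre, 73.5% repeat-like and 32% with any motif. More than 10 kb from a TSS the shares were 72.8% intergenic, 67.75% single-copy and 63.4% repeat-like. With single-copy centres only, they were 65% intergenic, 48.5% median GC, 46.1% repeat-like and 44.4% with any motif. The listed peak in place of 200 bp gave 48.5% GC and 23.7% with any motif, in a shorter sequence. Counting any shared base as a partner gave 72.8% single-copy and 52.0% repeat-like over the peaks scored. No WT peak within 1000 bp gave 59.5% repeat-like and a fullest window of 9. The fullest window held 8 members without chromosome 1 below 5.9 Mb, an alternative chosen after seeing the data. The remaining 37 moved values were single motif shares, introns, exons, distance and CpG number.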

Other observations

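Within classes of CpG number, the motif contents of members, shared and upper KO-only peaks were set side by side. Among sequences with 5 or more CpGs, AP-1 was found in 6.78% of 339 members (4.35 to 10.0%) and 2.85% of 3931 shared peaks (2.35 to 3.42%), with 1728 upper KO-only peaks between, at 4.57% (3.64 to 5.67%), an interval that overlaps the members'. ETS was in 3.83% of members (2.06 to 6.47%), 6.72% of shared (5.95 to 7.54%) and 4.51% of upper KO-only peaks (3.58 to 5.60%). In the same class the CRE was in 3.24% of members (1.63 to 5.73%) and 1.45% of shared (1.10 to 1.87%) and 26 of the 1728 upper KO-only peaks (0.985 to 2.20%), with overlapping intervals, and 7 of the 14 members with a CRE belonged to group 4. Among sequences with 0 to 1 CpG, KLF was in 2.16% of members (1.30 to 3.35%) and 4.43% of shared peaks (3.70 to 5.26%), with upper KO-only peaks at 3.59% (3.02 to 4.24%), while AP-1 was in 5%, 4.50% and 6.28%. GATA was in 4.86% of members with 2 to 4 CpGs (3.54 to 6.49%) and in 2.49% of such shared peaks (2.01 to 3.04%), and upper KO-only peaks overlapped the members at 4.11% (3.52 to 4.77%).

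The gene type nearest to a member was protein-coding for 1260 members, a pseudogene for 227, an snRNA for 162, an snoRNA for 139 and a miRNA for 100. Members in no sequence group were single-copy in 86.5% of cases and intergenic in 56.2%, compared with 56.9% and 78.1% of those in groups.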
